A study of Mus musculus with 24 samples.

Results

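Rhox6 and Rhox9 are paralogous reproductive homeobox genes of the Rhox cluster on the mouse X chromosome. They were followed by symbol, together with Rhox5, through read-count tables of embryonic stem cells (ESCs) lacking Tet proteins. Of the 3 genes listed, 2 had a row in both tables, among 22926 gene symbols, and Rhox5 is not analysed here. The libraries came from clones of a single parental ESC line derived from strain 129/SVj with eGFP knocked in behind Oct4 (Pou5f1), so that all groups share that reporter allele and line. WT clones were unedited at the Tet genes. CRISPR-Cas9 indels gave Tet1-/- clones, Tet2-/- clones, DKO clones (Tet1-/-:Tet2-/-) and TKO clones (Tet1-/-:Tet2-/-:Tet3-/-). Each clone was sampled as ESCs on gelatin with LIF (D0) or after 6 days without LIF (D6). At each day there were 3 WT clones (O4.1, O4.2, O4.13), 3 Tet1-/- clones and 2 clones of each other genotype, giving 24 libraries. Clones Tet1_KO_2.1 and Tet1_KO_2.4 were read at both days, Tet1_KO_2.3 at D0 and Tet1_KO_2.2 at D6. The label DKO_512 of a D6 library was read as clone DKO_5.12.

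Homeobox proteins are transcription factors that bind DNA through a homeodomain, and the Rhox family is known for its expression in testis, ovary and placenta. Rhox6 and Rhox9, also named Psx1 and Psx2, are known from placenta and germ cells. Promoters in this cluster are kept silent in most somatic cells by DNA methylation, the mark that Tet enzymes oxidise on the way to its removal. Differentiation after LIF withdrawal lets ESCs leave pluripotency toward several lineages at the same time.

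Rhox6 lies at X:35180087-35183034 on the plus strand and Rhox9 at X:35252274-35255044 on the minus strand (mm9), 72.2 kb apart from gene start to gene start. Their annotated coding sequences were both 684 bases long and aligned with no gap, with 620 identical positions (90.64%). Of all 38-base windows, the read length, 29.8% of those in the 1010-base Rhox6 transcript also occurred in Rhox9, and 30.8% of those in the 979-base Rhox9 transcript also occurred in Rhox6. How such shared reads were assigned was not given in the sources used here, nor was the strand setting, so part of each gene's count could belong to the other. The 100-base stretch of the alignment in which the paralogs differ most is shown because reads from it can tell them apart. It lies in exon 2 of 4 in both genes, at chrX:35180823-35180922 (plus strand, Rhox6) and chrX:35254209-35254308 (minus strand, Rhox9), read 5′ to 3′ along the coding strand of the mm9 genome, with capitals at the 22 positions that differ.
Rhox6: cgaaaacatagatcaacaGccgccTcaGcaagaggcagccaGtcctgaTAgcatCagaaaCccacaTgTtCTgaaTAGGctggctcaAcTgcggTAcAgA
Rhox9: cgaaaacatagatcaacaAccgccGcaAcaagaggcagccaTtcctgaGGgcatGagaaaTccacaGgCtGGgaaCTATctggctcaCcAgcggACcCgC
Elsewhere in the coding sequence the longest run with no difference spanned 161 bases, which is longer than a read.

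Read counts summed over genes came to between 21729346 and 37290208 per library at D0 and between 18400463 and 34219640 at D6. Levels are given as CPM, counts per 1000000 of the TMM-scaled library. No library stood apart in X-linked expression: the median log2 difference from WT over 552 X-linked genes, less that over 13850 autosomal genes, stayed between -0.08 and 0.10. The summed level of the Y-linked genes Ddx3y, Eif2s3y, Uty and Kdm5d varied widely between clones, from 0.818 CPM in Tet2_KO_3.11 to 236 CPM in WT clone O4.2, both at D0, and its part in the Rhox values was not tested. The indels left Tet RNA countable, and of the edited genes only Tet2 passed the test at D0, lower in Tet2-/- (log2 fold change -2.08, SE 0.516) and in TKO (-1.86, SE 0.512) by edgeR with Benjamini-Hochberg adjustment (adjusted p = 0.0299 and 0.0426). None passed at D6. Tet RNA is thus a weak check of these labels. The naive pluripotency markers Pou5f1 and Nanog were at 596 CPM or more and 541 CPM or more in every D0 library.

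At D0 both genes were read at low counts, from 2 to 57 reads per library for Rhox6 and from 6 to 48 for Rhox9. Rhox6 was read at 0.646, 2.18 and 0.950 CPM in WT clones O4.1, O4.2 and O4.13. It was at 1.23, 0.861 and 0.793 CPM in clones Tet1_KO_2.1, Tet1_KO_2.3 and Tet1_KO_2.4, at 0.683 and 0.175 CPM in clones Tet2_KO_3.10 and Tet2_KO_3.11, and at 0.489 and 0.689 CPM in clones DKO_5.11 and DKO_5.12. The TKO clones lay at the 2 extremes of the day, with 0.0836 CPM in clone TKO_8.4 and 2.35 CPM in clone TKO_8.12. These rested on 2 and 57 reads, with exact Poisson 95% intervals of 0.242 to 7.22 and 43.2 to 73.8 reads that cover counting error only. The limit for a count of 0, 3 reads, equals 0.118 CPM of the total in the TKO_8.4 library, above the value read there. All ranges of the knockouts except those of TKO fell inside or partly below that of WT.

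Rhox9 had a similar spread. It was at 0.283, 0.823 and 0.734 CPM in WT clones O4.1, O4.2 and O4.13, at 0.756, 0.902 and 0.793 CPM in clones Tet1_KO_2.1, Tet1_KO_2.3 and Tet1_KO_2.4, and at 0.384 and 0.234 CPM in clones Tet2_KO_3.10 and Tet2_KO_3.11. Clones DKO_5.11 and DKO_5.12 had 0.889 and 0.738 CPM, and clones TKO_8.4 and TKO_8.12 had 0.251 and 1.98 CPM. Clone TKO_8.12 was again the highest library of the day and clone Tet2_KO_3.11 the lowest, with every knockout range overlapping WT. The biological coefficient of variation at D0 was 0.626 for Rhox6, against 0.238 for genes of that level, and 0.438 for Rhox9 against 0.242.

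**Figure D1:**
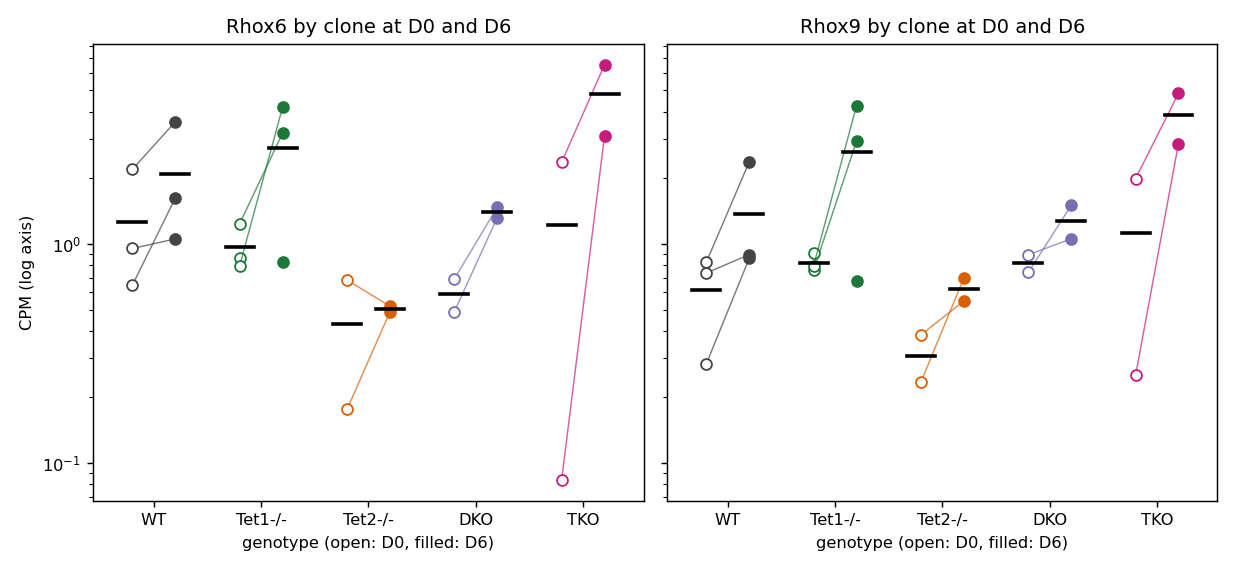
Levels of Rhox6 (left) and Rhox9 (right) in CPM on a log axis, by genotype, with 1 point per clone (open at D0, filled at D6), lines that join the same clone across days and black bars for group means. Both TKO clones at D6 sit at 2.86 CPM or higher for both genes, while Tet2-/- clones stay at or under 0.697 CPM at both days.

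Whether loss of Tet proteins altered the genes in ESCs was tested against WT in a fit over all 12 D0 libraries. All 4 knockouts share the same 3 WT controls. By edgeR (quasi-likelihood fit, Benjamini-Hochberg adjustment), called at an adjusted p under 0.05 and more than 2-fold, 0 of 8 tests of the 2 genes passed, 0 had an unadjusted p under 0.05, and DESeq2 also called 0. The share of all 14456 genes called was 0.00692% for Tet1-/-, 3.19% for Tet2-/-, 0.0346% for DKO and 3.15% for TKO. These shares depended on single clones, and in part on the tool and the fit. DESeq2 called 50 genes for Tet1-/- and 111 for DKO. Fits of only the 2 genotypes called 75 and 133, and fits with no filter on low counts 29 and 79. For TKO the fit of only the 2 genotypes called 3. The 461 genes called for Tet2-/- became 36 without clone Tet2_KO_3.10, 5 without Tet2_KO_3.11, 149 without WT clone O4.2, 123 without O4.13, 785 without TKO_8.4 and 778 without TKO_8.12. The 455 for TKO became 1147 without TKO_8.4, 850 without TKO_8.12 and 226 without WT clone O4.13. Without TKO_8.4 and without TKO_8.12, 110 and 110 were called for Tet1-/- and 235 and 234 for DKO. Rhox6 had log2 fold changes of -0.40 (SE 0.730) for Tet1-/-, -1.66 (SE 0.921) for Tet2-/-, -1.11 (SE 0.902) for DKO and -0.05 (SE 0.798) for TKO. Rhox9 had 0.39 (SE 0.583), -1.04 (SE 0.739), 0.40 (SE 0.658) and 0.86 (SE 0.621) in the same order. With SEs of this size, a 2-fold difference was not detectable at this depth and number of clones. The TKO values rested on single clones. Without clone TKO_8.4 the Rhox6 difference was 0.89 and that of Rhox9 1.68 (called, edgeR adjusted p = 0.00881), and without clone TKO_8.12 they were -3.84 (called, adjusted p = 0.0236) and -1.27. Each of these fits has 1 TKO clone that is assumed to vary like the other groups. Without WT clone O4.2 the Rhox6 difference in TKO was 0.61. Leaving out either TKO clone also carried the Rhox6 difference in Tet2-/- past the threshold, at -1.68 without TKO_8.4 and -1.68 without TKO_8.12 (adjusted p = 0.0379 and 0.0392).

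By group mean, Rhox6 at D0 was ordered WT (1.26 ± 0.813 CPM, SD, n = 3), TKO (1.22 ± 1.60, n = 2), Tet1-/- (0.963 ± 0.237, n = 3), DKO (0.589 ± 0.142, n = 2) and Tet2-/- (0.429 ± 0.359, n = 2). Rhox9 was ordered TKO (1.11 ± 1.22), Tet1-/- (0.817 ± 0.0756), DKO (0.814 ± 0.106), WT (0.613 ± 0.290) and Tet2-/- (0.309 ± 0.106). No pair of neighbours in either order was called in the fit over all 12 libraries. TKO against Tet1-/- was called in opposite directions when 1 TKO clone was left out, higher for Rhox9 without clone TKO_8.4 (1.29, edgeR adjusted p = 0.0303) and lower for Rhox6 without clone TKO_8.12 (-3.43, adjusted p = 0.0349). By edgeR, 0 of the 10 pairs of genotypes were called for either gene at D0. The unadjusted edgeR p was under 0.05 in 0 pairs for Rhox6 and in 1 for Rhox9. DESeq2 called 0 in the 4 pairs with WT, the only pairs for which its D0 results were kept. The share of all genes called was 6.19% in Tet2-/- against Tet1-/-, 3.99% in TKO against Tet1-/-, 6.36% in DKO against Tet2-/-, 4.19% in TKO against Tet2-/-, 0.913% in TKO against DKO and 0% in DKO against Tet1-/-.

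After 6 days without LIF both genes were read at higher levels in most clones. Rhox6 was at 1.61, 3.59 and 1.05 CPM in WT clones O4.1, O4.2 and O4.13. It was at 3.19, 0.821 and 4.199 CPM in clones Tet1_KO_2.1, Tet1_KO_2.2 and Tet1_KO_2.4. Clones Tet2_KO_3.10 and Tet2_KO_3.11 had 0.518 and 0.488 CPM and clones DKO_5.11 and DKO_5.12 had 1.31 and 1.47 CPM. Clones TKO_8.4 and TKO_8.12 had 3.107 and 6.54 CPM. Both Tet2-/- clones lay below every other library of the day, and clone TKO_8.12 above every other.

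Rhox9 at D6 was at 0.857, 2.36 and 0.891 CPM in WT clones O4.1, O4.2 and O4.13 and at 2.93, 0.678 and 4.26 CPM in clones Tet1_KO_2.1, Tet1_KO_2.2 and Tet1_KO_2.4. Clones Tet2_KO_3.10 and Tet2_KO_3.11 had 0.547 and 0.697 CPM, clones DKO_5.11 and DKO_5.12 had 1.05 and 1.49 CPM, and clones TKO_8.4 and TKO_8.12 had 2.86 and 4.84 CPM. Both TKO clones lay above all WT clones and both Tet2-/- clones below them. Clone Tet1_KO_2.2, which has no D0 library, stood at the level of the Tet2-/- clones for this gene, apart from the other Tet1-/- clones.

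In the fit over the 12 D6 libraries, again with 3 WT controls shared by all knockouts, 0 of 8 tests against WT were called by edgeR with Benjamini-Hochberg adjustment, 2 had an unadjusted p under 0.05 and DESeq2 called 1. The share of all 15435 genes called was 0% for Tet1-/-, 14.3% for Tet2-/-, 0% for DKO and 0% for TKO. The 2201 genes called for Tet2-/- became 304 without clone Tet2_KO_3.10, 0 without Tet2_KO_3.11 and 1348 without WT clone O4.13. For TKO, 721 genes were called without WT clone O4.2, 238 without Tet1_KO_2.2 and 196 without Tet1_KO_2.4. The TKO count was 515 with all 24 libraries in 1 fit, 470 by DESeq2 and 93 with no filter on low counts. For DKO, 22 were called without Tet1_KO_2.2, 5 without Tet1_KO_2.4, 6 without WT clone O4.2, 98 with all 24 libraries in 1 fit and 185 by DESeq2, which called 44 for Tet1-/-. The lowest adjusted p was that of Rhox6 in Tet2-/-, with a log2 fold change of -2.06 (SE 0.733, adjusted p = 0.0556). The ratio to WT 2 SE either side ran from 0.0865 to 0.661. DESeq2 called this difference (-2.05, adjusted p = 0.0131), and so did edgeR without clone Tet1_KO_2.2 (-2.06, adjusted p = 0.0207) or Tet1_KO_2.4 (-2.06, adjusted p = 0.0477), neither of them in the pair compared. Rhox9 in Tet2-/- was at -1.17 (SE 0.719, adjusted p = 0.235). In TKO, Rhox6 was at 1.20 (SE 0.622, adjusted p = 0.262) and Rhox9 at 1.48 (SE 0.639, adjusted p = 0.195). In Tet1-/- they were at 0.39 (SE 0.569) and 0.93 (SE 0.586), and in DKO at -0.59 (SE 0.657) and -0.11 (SE 0.667).

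**Figure D2:**
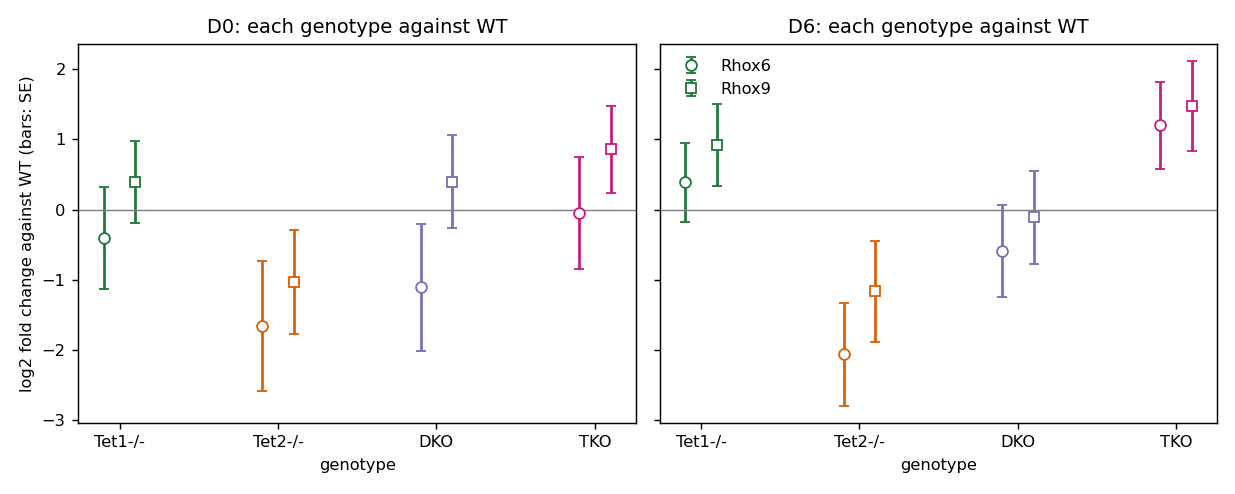
Log2 fold change of Rhox6 (circles) and Rhox9 (squares) against WT, at D0 (left) and D6 (right) for each knockout genotype, with bars of 1 SE from the edgeR fit. Points are open because no test passed the threshold, and for each gene the Tet2-/- point is the lowest at both days, at -1.66 and -1.04 at D0 and -2.06 and -1.17 at D6.

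The order of group means at D6 was the same for both genes. Rhox6 was highest in TKO (4.82 ± 2.43 CPM, SD, n = 2), followed by Tet1-/- (2.74 ± 1.73, n = 3), WT (2.09 ± 1.34, n = 3), DKO (1.39 ± 0.107, n = 2) and Tet2-/- (0.503 ± 0.0213, n = 2). Rhox9 was at 3.85 ± 1.40, 2.62 ± 1.81, 1.37 ± 0.858, 1.27 ± 0.312 and 0.622 ± 0.106 CPM in that order. Neighbours in the order were not called, with edgeR adjusted p-values from 0.212 to 0.955. Of the 10 pairs of genotypes, the ends of the order were called for both genes and no other pair was called for either. Rhox6 was higher in TKO than in Tet2-/- by 3.26 on the log2 scale (SE 0.780, adjusted p = 0.0238), a ratio of 9.61 with 3.26 to 28.3 at 2 SE either side. Rhox9 was higher by 2.65 (SE 0.765, adjusted p = 0.0430), a ratio of 6.26 with 2.17 to 18.1. The share of all genes called in this pair was 8.64%, beside 6.36% in Tet2-/- against Tet1-/-, 9.5% in DKO against Tet2-/- and 0% in the other 3 pairs without WT. The 1334 genes called in TKO against Tet2-/- became 29 without clone Tet2_KO_3.10, 2 without Tet2_KO_3.11, 198 without TKO_8.12 and 2083 without TKO_8.4. This pair was set beside the others after its values were seen, as the pair with the largest gap. Leaving out clone TKO_8.12 (2.65), clone Tet2_KO_3.10 (3.31) or clone Tet2_KO_3.11 (3.22) took the Rhox6 call away. The Rhox9 call was also lost without TKO_8.12 (2.24), Tet2_KO_3.10 (2.48), Tet2_KO_3.11 (2.82), clone Tet1_KO_2.1 (2.63), WT clone O4.13 (2.63), clone DKO_5.11 (2.63) or clone DKO_5.12 (2.64).

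Markers of other cell types differed between the same groups. Of the 14 genes of the trophectoderm and placenta list, 12 were lower in Tet2-/- than in WT at D6, with 0 higher and a median log2 fold change of -2.86, against 9.45% of all genes lower and a median of -0.03. Elf5, a transcription factor of trophoblast stem cells, had 3, 4 and 10 reads in the WT libraries and 0 in both Tet2-/- libraries, so that it was at least 2.26-fold lower against the limit of 3 reads per library, and with Elf5 at that bound the median of the list was -2.29. The largest fitted changes beside it were those of the trophoblast factors Hand1 (-7.33, SE 1.27) and Cdx2 (-4.74, SE 1.19) and of Plac1 (-4.31, SE 1.14), a placental secreted protein with 3 and 4 reads in the Tet2-/- libraries. The summed level of the list was 797 to 1806 CPM for WT, 713 to 1337 for Tet1-/-, 200.1 to 225.8 for Tet2-/-, 934 to 1161 for DKO and 715 to 1004 for TKO. Krt8 and Krt18, keratins that other epithelia also express, reached 643 and 640 CPM of such a sum. In TKO against WT at D6, where 0% of all genes were called, 0 of the 14 were called, with log2 fold changes from -3.08 to 1.21 and a median of -0.43. Elf5, a defining marker, was at 3 or fewer reads in 16 of 24 libraries and Cdx2 in 3. Hand1 and Eomes of this list are also mesoderm genes, and 9 of 10 mesoderm genes were lower in Tet2-/-. In TKO against Tet2-/- at D6, 10 of the 14 trophectoderm genes were higher and 0 lower, against 6.01% of all genes higher and 2.63% lower. The 1334 genes called in that pair became 29 without clone Tet2_KO_3.10 and 2 without Tet2_KO_3.11. Of 12 naive pluripotency genes, 4 were higher in Tet2-/- than in WT at D6 and 0 lower (median 1.10), against 4.81% of all genes higher, and their summed level was 1969 to 2144 CPM against 787 to 1519 CPM. Of the 12 genes of primitive and visceral endoderm 10 were tested, with 5 lower and 0 higher, and of the 8 of neuroectoderm 6 were tested, with 3 higher and 0 lower. None of these counts against WT held without clone Tet2_KO_3.11, when 0 of all genes were called, while 304 were called without Tet2_KO_3.10. In bulk samples, fewer cells of a type and less RNA per cell cannot be told apart, and the part of these markers in the Rhox levels was not tested.

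The change from D0 to D6 was tested within each genotype in a fit over all 24 libraries. The direction was the same in all 10 tests of the 2 genes, with log2 fold changes from 0.32 to 1.97. Among the 11 clones read at both days, Rhox9 was higher at D6 in 11 and Rhox6 in 10, the exception being clone Tet2_KO_3.10 (0.683 to 0.518 CPM). The median clone had 2.87 times its D0 level of Rhox9 and 2.59 times its D0 level of Rhox6. Clone TKO_8.4 went from 2 to 101 reads of Rhox6, a ratio of 37.2 with a counting interval of 10.03 to 311, and from 6 to 93 reads of Rhox9, a ratio of 11.4 (5.05 to 31.9).

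By edgeR with Benjamini-Hochberg adjustment, 1 of the 10 tests was called, 4 had an unadjusted p under 0.05 and DESeq2 called 3. The call was Rhox9 in Tet1-/-, which rose by 1.68 (SE 0.612, adjusted p = 0.0222). The share of all 15639 genes called over the 6 days was 34% for WT, 31.1% for Tet1-/-, 19.1% for Tet2-/-, 29.2% for DKO and 25.4% for TKO. The 3976 genes behind the TKO share became 2117 with only the 2 groups compared. A single call in 10 is below this background in the fit without a block. The Rhox9 call was lost without clone Tet1_KO_2.1 at D0 (1.63), clone Tet1_KO_2.4 at D0 (1.66) or clone Tet1_KO_2.4 at D6 (1.16). In TKO, Rhox9 was at 1.77 (SE 0.730, adjusted p = 0.0501) and Rhox6 at 1.97 (SE 0.865, adjusted p = 0.0651). Rhox6 was at 1.51 (SE 0.718, adjusted p = 0.0744) in Tet1-/-. The TKO change was called without clone TKO_8.12 at D0, at 5.76 for Rhox6 and 3.90 for Rhox9, fitted values whose D0 side is the 2 and 6 reads of TKO_8.4. That of Rhox6 was also called without Tet1_KO_2.2 at D6 (1.98), and that of Rhox9 without TKO_8.4 at D6 (2.11), Tet1_KO_2.2 at D6 (1.78), Tet1_KO_2.4 at D6 (1.77), WT clone O4.2 at D6 (1.77) or O4.1 at D0 (1.77). Rhox6 in Tet1-/- was called without Tet1_KO_2.2 at D6 (1.98), TKO_8.4 at D0 (1.53) or TKO_8.12 at D0 (1.51). In WT, Rhox9 was at 1.17 (SE 0.650, adjusted p = 0.120) and Rhox6 at 0.73 (SE 0.712, adjusted p = 0.377). Both genes missed the threshold in Tet2-/- (Rhox6 0.32, SE 1.05, and Rhox9 1.03, SE 0.892) and in DKO (Rhox6 1.24, SE 0.960, and Rhox9 0.64, SE 0.773).

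Of the clones, 11 were read at both days, and with the clone as a block 5 of the 10 tests were called. The share of all genes called in that fit was 34.1% for WT, 27% for Tet1-/-, 19.4% for Tet2-/-, 29.5% for DKO and 25.4% for TKO. Its Tet1-/- change rests on Tet1_KO_2.1 and Tet1_KO_2.4, since Tet1_KO_2.3 and Tet1_KO_2.2 were each read at a single day. Besides Rhox9 in Tet1-/-, the calls were Rhox9 in WT (1.10, adjusted p = 0.0431) and Rhox6 in Tet1-/- (1.85, adjusted p = 0.0177), by edgeR. In TKO they were Rhox6 (2.48, adjusted p = 0.00528) and Rhox9 (2.09, adjusted p = 0.00404), also by edgeR. Both TKO values rest in part on the 2 and 6 D0 reads of TKO_8.4. The Rhox6 ratio of D6 to D0 was 37.2 in that clone and 2.78 in TKO_8.12, and that of Rhox9 was 11.4 and 2.45. Whether the change in a knockout differed from that in WT was tested as an interaction, called at an adjusted p under 0.05. Of 8 such tests 0 were called and 0 had an unadjusted p under 0.05. DESeq2 called 0, and 2 of its tests had no adjusted p. The share of all genes called was 0% for Tet1-/-, 16% for Tet2-/-, 0% for DKO and 5.97% for TKO. The 933 genes behind the TKO share became 1883 without TKO_8.12 at D0 and 1954 without WT clone O4.2 at D6. They became 487 without O4.2 at D0, 479 without O4.13 at D0, 453 without O4.1 at D6 and 442 without O4.13 at D6. The 2499 behind the Tet2-/- share became 527 to 1659 without any 1 of the 4 Tet2-/- libraries or of O4.2 and O4.13 at D0 and O4.1 and O4.13 at D6. The differences from WT ran from -0.52 (SE 1.01, Rhox9 in DKO) to 1.24 (SE 1.11, Rhox6 in TKO). Without clone TKO_8.12 at D0, the Rhox6 difference in TKO was 5.03 and was called (edgeR adjusted p = 0.0352), again against the 2 reads of TKO_8.4.

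**Figure D3:**
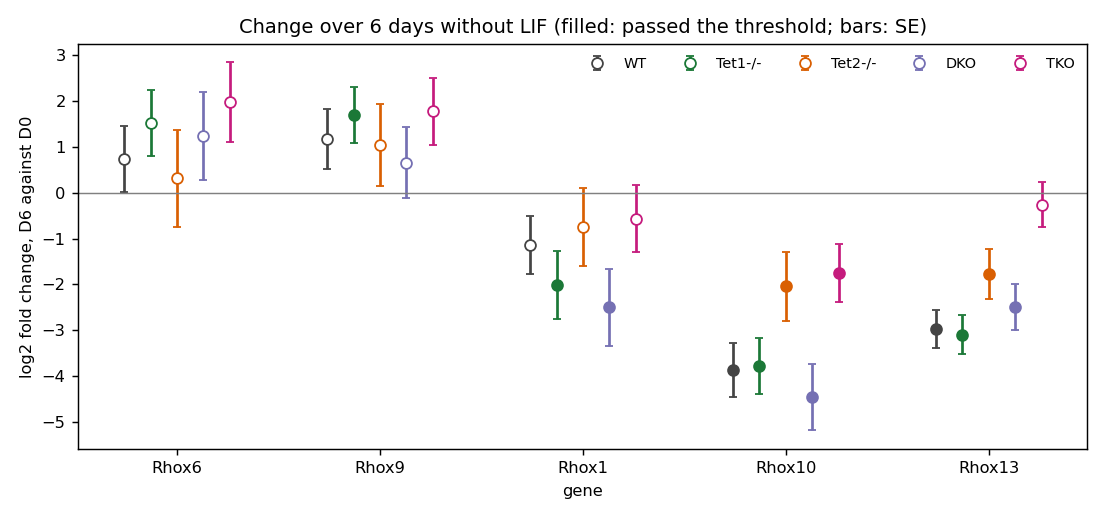
Log2 fold change from D0 to D6 for the 5 Rhox genes with enough reads, by genotype, with bars of 1 SE and filled points where the test passed the threshold. Rhox6 and Rhox9 lie above 0 in all 5 genotypes, between 0.32 and 1.97, and Rhox1, Rhox10 and Rhox13 lie below 0 in all 5.

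The other Rhox genes with enough reads had negative log2 fold changes over the 6 days in all 5 genotypes. Of 28 other Rhox symbols, 3 reached 10 reads in at least 2 libraries (Rhox1, Rhox10 and Rhox13, all homeobox genes of the same family). The other 25 never exceeded 3 reads, and 10 had 0 reads in all libraries. Rhox10 was between 3.1 and 4.32 CPM in the 3 WT clones at D0 and at 0, 0.508 and 0.191 CPM in O4.1, O4.2 and O4.13 at D6, with no overlap. It fell in all 5 genotypes by edgeR with Benjamini-Hochberg adjustment, by 3.86 (SE 0.59) for WT, 3.77 (SE 0.60) for Tet1-/-, 2.04 (SE 0.75) for Tet2-/-, 4.46 (SE 0.72) for DKO and 1.75 (SE 0.64) for TKO. Its fall in Tet2-/- and TKO missed the threshold with the clone as a block (adjusted p = 0.0732 and 0.0653) and with library totals in place of TMM (-1.90 and -1.55, adjusted p = 0.0525 and 0.0531). The fall in TKO also missed it with only the 2 groups compared (-1.76, adjusted p = 0.203). The threshold was further missed in Tet2-/- when any 1 of the 4 Tet2-/- libraries was left out (-2.26 to -1.80), and in TKO without TKO_8.12 at D0 (-1.04) or D6 (-1.02). The annotated span of Rhox10 holds that of Rhox11 on the other strand, and whether their exons overlap was not checked. Rhox11 was counted apart, with 3 reads over all libraries.

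Rhox13 was at 3.47, 6.54 and 5.44 CPM in WT clones O4.1, O4.2 and O4.13 at D0 and at 0.353, 1.23 and 0.350 CPM at D6. It fell by 2.97 (SE 0.414) for WT, 3.09 (SE 0.423) for Tet1-/-, 1.77 (SE 0.538) for Tet2-/- and 2.49 (SE 0.494) for DKO. In clones TKO_8.4 and TKO_8.12 it was at 1.55 and 1.61 CPM at D0 and at 1.85 and 0.699 CPM at D6, a log2 fold change of -0.26 (SE 0.486, edgeR adjusted p = 0.671). Rhox1 was called lower at D6 in Tet1-/- (-2.01, SE 0.733) and DKO (-2.501, SE 0.844) and was not called elsewhere. Its calls were lost without clone Tet1_KO_2.1 at D0 (-1.49) or Tet1_KO_2.4 at D6 (-1.60), and without DKO_5.11 at D0 (-2.32) or D6 (-2.12). The Rhox13 fall in Tet2-/- was lost without Tet2_KO_3.10 at D0 (-1.44) or D6 (-1.39). At D0, Rhox10 was lower in Tet2-/- than in WT (-1.91, SE 0.340, adjusted p = 0.0107). Rhox13 was lower in Tet2-/- (-1.93, SE 0.288, adjusted p = 0.00589) and in TKO (-1.71, SE 0.287, adjusted p = 0.00668), again by edgeR. The Rhox13 call in TKO was lost with only the 2 genotypes in the fit (-1.72, adjusted p = 0.124), and the Rhox10 call with all 24 libraries in 1 fit (-1.88, adjusted p = 0.0608). Rhox6 and Rhox9 in the same Tet2-/- libraries were at -1.66 and -1.04 and were not called. The Rhox10 call at D0 was also lost without clone Tet2_KO_3.10 (-2.13) or Tet2_KO_3.11 (-1.68), and the Rhox13 call in Tet2-/- without clone Tet2_KO_3.11 (-1.64).

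The 29 annotated Rhox symbols with a row spanned 729 kb. Of the 20 nearest genes with a row outside it, 10 on each side, 15 passed the filter. In WT, 2 of these rose from D0 to D6, Gria3 (3.54, SE 0.415), a glutamate receptor subunit, and Sept6 (1.18, SE 0.168), a septin, and 0 fell. Their median change was 0.42 against 0.01 over all genes tested, of which 20.7% were higher. In TKO 3 rose, Gria3 (5.02, SE 0.567), Gm9 (2.14, SE 0.808) and the ubiquitin ligase scaffold Cul4b (1.02, SE 0.173), and 0 fell, against 16.8% of all genes higher.

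**Figure D4:**
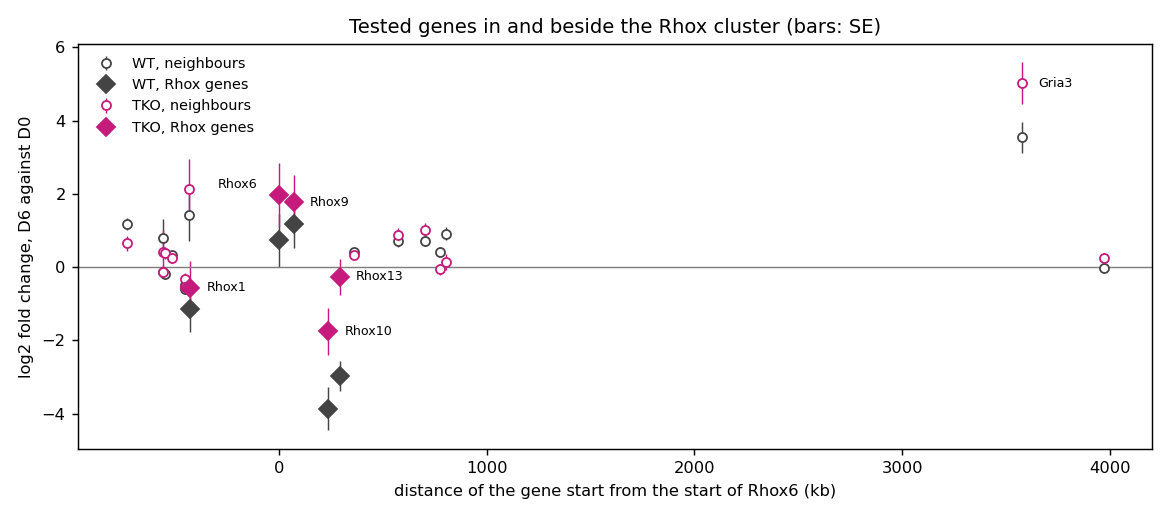
Log2 fold change from D0 to D6 in WT (grey) and TKO (magenta) for tested Rhox genes (diamonds) and their tested neighbours (open circles), against the distance of the gene start from that of Rhox6 in kb, with bars of 1 SE. Rhox6 and Rhox9 lie above 0 and Rhox10 and Rhox13, 240 and 294 kb away, below it.

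Other genes of the methylation pathway and of the germline were counted from the chosen lists. Among 8 genes that write or remove DNA methylation, 2 rose and 3 fell in WT from D0 to D6. They included Tet2 (-2.74, SE 0.405), Dnmt3l (-2.18, SE 0.314), a cofactor of de novo methylation, Dnmt3b (1.63, SE 0.266), a de novo methyltransferase, and Tet1 (-1.55, SE 0.662). Of 14 repressors reported at germline and Rhox promoters, 1 rose (Dnmt3b, which both lists hold) and 1 fell, the chromatin remodeler Hells (-1.35, SE 0.173). Of 20 germline genes with methylated promoters, 19 passed the joint filter, and 1 rose and 14 fell in WT with a median of -1.87, against 20.7% of all genes higher and 13.3% lower. In TKO 5 rose and 0 fell, with a median of 0.66, against 16.8% of all genes higher and 8.63% lower. At D0, 9 of 19 tested were lower in Tet2-/- than in WT and 0 higher (median -1.15), against a median of -0.01 and 2.37% lower over all genes. The 461 genes called in that comparison became 36 without clone Tet2_KO_3.10 and 5 without Tet2_KO_3.11. At D6 in the same comparison, in which Rhox6 and Rhox9 were at -2.06 and -1.17, 1 of the 19 was higher and 0 lower, against 4.81% of all genes higher and 9.45% lower, so that the share higher is near the background. The summed level of this list at D6 was 61.1 to 110 CPM for WT, 72.1 to 152 for Tet1-/-, 124 to 126 for Tet2-/-, 199 to 200.2 for DKO and 189 to 221 for TKO. The DKO range lay within that of TKO. Rhox6 and Rhox9 in DKO were at -0.59 and -0.11 against WT and were not called. Of 8 primordial germ cell genes, 0 rose and 2 fell in WT over the 6 days, Nanos3 (-2.65, SE 0.621) and Prdm14 (-1.94, SE 0.289), and their summed level at D6 was 188 to 287 CPM in WT, 188 to 191 in Tet2-/- and 248 to 362 in TKO.

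Rhox6 and Rhox9 followed each other closely across libraries. Over the 24 libraries, Pearson's r of their log2(CPM + 1) levels was 0.93 and Spearman's rho 0.88, given as a description since the points share clones, days and, for part of each transcript, reads of the same sequence. The r was 0.78 within the 12 D0 libraries and 0.96 within the 12 D6 libraries. Without the 2 libraries farthest from the median of Rhox6 it was 0.89. Each was the gene most like the other among 15638 genes compared, over all libraries and with the mean of each day subtracted (r = 0.91). Over the 10 means of genotype and day, Elf5 (r = 0.953) was ahead of Rhox9 (r = 0.949) in likeness to Rhox6. Within D0, where counts were lowest, Rhox9 ranked 119 in likeness to Rhox6, and Rhox6 ranked 675 in likeness to Rhox9. Per kb of transcript, the level of Rhox6 ranged from 0.323 to 2.57 times that of Rhox9 with a median of 1.10, and was the higher of the pair in 14 of 24 libraries.

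After Rhox9, the genes most like Rhox6 over the 24 libraries were Ceacam19 (r = 0.85), a cell adhesion molecule, Elf5 (0.84), an ETS factor of trophoblast stem cells, Atp12a (0.82), an ion pump, and Rab3b (0.82), a vesicle GTPase. After Rhox6, those most like Rhox9 were Agpat9 (0.85), an acyltransferase of lipid synthesis, Tmprss4 (0.83), a membrane serine protease, Elf5 (0.83) and Gcm1 (0.82), a trophoblast transcription factor. With the mean of each day subtracted, Nup62cl (0.82), Ceacam19 (0.81), Nexn (0.80) and Atp12a (0.80) followed for Rhox6, and Agpat9 (0.82), 4933402E13Rik (0.79), Gcm1 (0.79) and Nup62cl (0.79) for Rhox9. Elf5 averaged 0.0192 CPM at D0 and 0.229 CPM at D6, so that its likeness rests on few reads. The same holds for Tmprss4 (0.0137 and 0.434 CPM) and Ceacam19 (0.120 and 0.378 CPM). With a pseudocount of 0.1 CPM, 3 of the 5 most like genes were kept for Rhox6 and 3 for Rhox9. Over the 10 means of genotype and day, 2 were kept for Rhox6 and 1 for Rhox9. The other Rhox genes were not among them, with r to Rhox6 of 0.07 for Rhox1, -0.29 for Rhox10 and -0.21 for Rhox13 over all libraries, and 0.53, 0.32 and 0.39 with the mean of each day subtracted.

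**Figure D5:**
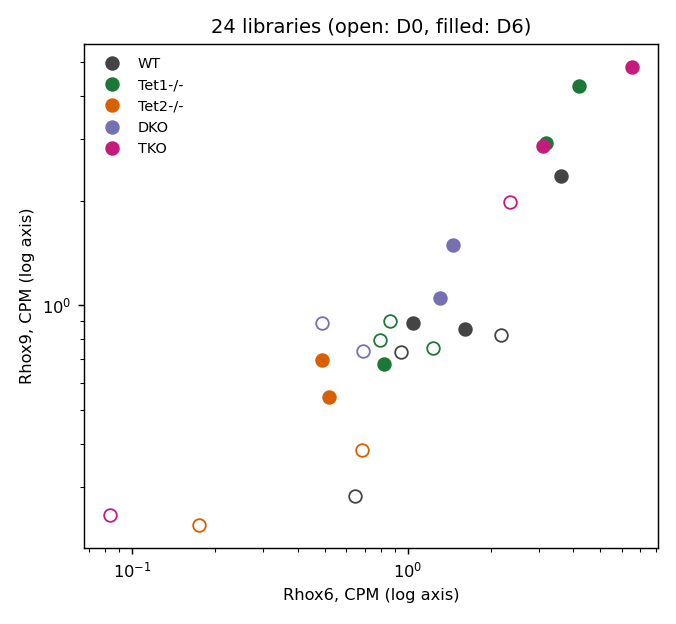
Level of Rhox9 against that of Rhox6 in CPM, both on log axes, with 1 point per library (24 in all, open at D0 and filled at D6) coloured by genotype. Points lie along a common diagonal (r = 0.93 on log2(CPM + 1)), with the lowest point of Rhox6 in D0 TKO_8.4 (0.0836 CPM), the Tet2-/- libraries all at or under 0.697 CPM for both genes, and D6 TKO_8.12 highest (6.54 and 4.84 CPM).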

How the data were processed

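Poly(A)-selected RNA, with ERCC spike-in, was sequenced from 24 mouse ESC libraries. Per the study's methods and the submitters' processing notes, reads were mapped to mm9 with STAR 2.5.1 and counted per RefSeq transcript. The strand setting and the treatment of reads that map to paralogs were not given in the sources used here. The authors deposited raw read counts in a table of 31928 rows for each day. For the 4911 symbols with more than 1 row the first was used. Genes were kept with edgeR's filterByExpr (minimum count 10) and tested with its quasi-likelihood test (edgeR 4.0.16, R 4.3.3, TMM scaling), with Benjamini-Hochberg adjustment over all genes. Tests were checked on simulated counts. DESeq2 1.42.0 was an alternative. The members and gene lists were chosen with earlier results of these data known. The named genes were both members in every comparison, other Rhox genes with 10 reads in 2 libraries, at most the 4 called genes of a list with the largest change, and the 5 genes most like each member by Pearson's r of log2(CPM + 1).

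Replicates are clones of 1 line, so p-values measure the spread between clones. Clones pair the days, since the labels name the same clone at both. Correlations of their deviations from group means ran from 0.0813 to 0.193 over 11 clones. Sequences and positions came from the NCBIM37 (mm9) genome with GENCODE vM1. Promoters and proteins were not used here. Figures were drawn with matplotlib 3.10.9.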

Additional observations from a re-analysis of the deposited data

Results flagged for a closer look

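The change of Rhox13 from D0 to D6 differed between TKO and WT by 2.70 on the log2 scale (SE 0.638, edgeR interaction test with Benjamini-Hochberg adjustment, adjusted p = 0.0196), a test of the difference itself. It fell by 2.97 in WT and was at -0.26 in TKO. The call was lost without clone TKO_8.4 at D6 (1.80, adjusted p = 0.157) or WT clone O4.13 at D6 (2.38, adjusted p = 0.0529). The cause was not tested.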

How the results depend on the processing

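For Rhox6 and Rhox9, 840 of 910 alternative values over 36 results kept direction and side of the threshold. Most of these results were not called in the main fit, so most of the 840 are uncalled values that stayed uncalled. Of the other values, 14 lost a call, 36 gained one and 20 reversed direction. Library totals without TMM, the fit with no filter, DESeq2 and the fit with only the 2 genotypes called Rhox6 lower in Tet2-/- than in WT at D6 (-2.11, -2.04, -2.05 and -2.04). For D6 against D0, library totals called Rhox6 in Tet1-/- (1.71) and TKO (2.14) and Rhox9 in TKO (1.95). DESeq2 called Rhox6 (2.00) and Rhox9 (1.80) in TKO, and DESeq2 size factors (1.79) and no filter (1.76) called Rhox9 there. Fits of only the 2 groups, chosen after seeing the data, called Rhox6 in Tet1-/- (1.54) and DKO (1.29) and Rhox9 in Tet2-/- (1.07). With the clone as replicate block, the calls added were Rhox9 in WT (1.10), Rhox6 in Tet1-/- (1.85) and TKO (2.48) and Rhox9 in TKO (2.09), and the block changed no other call of the 2 genes. The labels do not say what the replicate numbers within a day stand for. Mean correlations of libraries with the same number ran from -0.377 (2 libraries) to 0.142 and cannot show whether they share a batch. With the number as block, Rhox9 in TKO against Tet2-/- at D6 was 2.70 (adjusted p = 0.0605), Rhox9 in DKO against WT at D6 turned to 0.045 and Rhox6 in TKO against Tet1-/- at D0 to -0.034. Library totals turned Rhox9 in DKO against Tet1-/- at D0 to -0.0100.

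Leaving out each library in turn gave these ranges. For Rhox6 against WT at D0 they were -0.72 to 0.26 in Tet1-/-, -2.83 to -0.89 in Tet2-/-, -3.84 to 0.89 in TKO and -1.43 to -0.45 in DKO, and at D6 -0.045 to 1.06 in Tet1-/-, -2.38 to -1.39 in Tet2-/-, -0.92 to 0.089 in DKO and 0.59 to 1.87 in TKO. For Rhox9 they were 0.044 to 0.67 in Tet1-/-, -1.39 to -0.67 in Tet2-/-, 0.051 to 0.68 in DKO and -1.27 to 1.68 in TKO at D0, and 0.40 to 1.59 in Tet1-/-, -1.40 to -0.51 in Tet2-/-, -0.39 to 0.55 in DKO and 1.07 to 2.14 in TKO at D6. TKO against Tet2-/- at D6 gave 2.65 to 3.70 for Rhox6 and 2.24 to 2.97 for Rhox9. D6 against D0 gave, for Rhox6, 0.059 to 1.39 in WT, 1.07 to 1.98 in Tet1-/-, -0.44 to 1.52 in Tet2-/-, 1.03 to 1.53 in DKO and 1.02 to 5.76 in TKO, and for Rhox9 0.52 to 1.44 in WT, 1.16 to 2.18 in Tet1-/-, 0.68 to 1.41 in Tet2-/-, 0.37 to 0.87 in DKO and 0.95 to 3.90 in TKO. Differences of the change from WT gave, for Rhox6, 0.12 to 1.45 in Tet1-/-, -1.16 to 0.79 in Tet2-/-, -0.15 to 1.18 in DKO and 0.29 to 5.03 in TKO, and for Rhox9 -0.011 to 1.17 in Tet1-/-, -0.48 to 0.52 in Tet2-/-, -0.80 to 0.13 in DKO and -0.22 to 2.74 in TKO. At D0, TKO against Tet1-/- ran from -3.43 to 1.29 for Rhox6 and from -1.66 to 1.29 for Rhox9, DKO against Tet2-/- from -0.22 to 1.72 for Rhox6 and DKO against Tet1-/- from -0.13 to 0.13 for Rhox9. The change of Rhox13 in TKO ran from -1.17 to 0.25.

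Limits are the low counts (2 to 133 reads of Rhox6 per library), 2 or 3 clones a group, and reads shared by the paralogs. Where 1 clone of a genotype was left, it was assumed to vary like the other groups. The number of genes called moved by over 1.5 times with single libraries. In Tet2-/- against WT it went from 461 to between 5 (without Tet2_KO_3.11) and 785 (without TKO_8.4) at D0, and from 2201 to 0 (without Tet2_KO_3.11) at D6, and for the difference of the change in Tet2-/- from 2499 to 527 without Tet2_KO_3.10 at D0. In TKO against Tet2-/- at D6 it went from 1334 to 2 without Tet2_KO_3.11. It also moved with the tool, from 0 to 470 in TKO against WT at D6 and from 933 to 1596 for the difference of the change in TKO with DESeq2, and with the libraries in the fit, from 455 to 3 in TKO against WT at D0 with only these 2 genotypes. The causes were not tested.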
